A study of Mus musculus with 48 samples.

Results

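Adipose tissue of mice fed a starch/oleate diet was compared with that of mice fed a sucrose/palmitate diet, the 2 custom diets of the study that differ in both their carbohydrate and their fatty acid. The members were the 9 libraries titled starch/oleate and the 8 titled sucrose/palmitate, 17 of the 48 libraries of the series. The tissue was epididymal fat, a visceral white depot attached to the epididymis, taken from inbred C3H/HeOuJ mice that ate the diet freely for 6 months. Both diets supplied 42% of calories as carbohydrate and 42% as fat: starch with oleate, a monounsaturated fatty acid, or sucrose with palmitate, a saturated one. The other groups of the series were starch/palmitate (n = 7), sucrose/oleate (n = 9), a commercial Western diet (n = 7) and chow (n = 8), and chow and the other custom diets are used here as reference levels. Because carbohydrate and fatty acid change together, their parts in a difference between these diets cannot be told apart within this comparison. The labels give no animal numbers, age or cage, so p-values measure the spread between libraries.

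White adipose tissue holds lipid-filled adipocytes, which secrete proteins such as adipsin, together with blood vessels, resident macrophages, lymphocytes and mast cells. When fat pads expand on energy-rich diets, recruited macrophages gather around dying adipocytes and take up lipid; such cells carry Trem2, Cd9 and Itgax, whereas resident macrophages carry Cd163 and Ccl24. Levels were read on a NanoString nCounter panel of mouse immune genes, in which barcoded probes bound to RNA are counted without amplification. In whole tissue, fewer cells of a type and less RNA per cell cannot be told apart.

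The gene probes summed to 575868 to 755967 counts on starch/oleate and 396391 to 825470 on sucrose/palmitate (two-sided exact permutation p = 0.247). Positive control A over B, a ratio of spiked RNAs that depends on the assay alone, ran from 3.11 to 3.28 on starch/oleate and 2.99 to 3.56 on sucrose/palmitate (two-sided exact permutation p = 0.478). It was 2.92 to 3.16 on starch/palmitate and 2.92 to 3.07 on sucrose/oleate, so the other custom diets lie mostly or wholly below the starch/oleate range. Of 6 technical measures, the geometric mean of the positive controls had the smallest p (two-sided exact permutation p = 0.0436, 0.262 adjusted over the 6). For the tissue label, only 4 of 14 listed adipocyte genes are on the panel. Of these Cd36, the fatty acid transporter, ran from 42970 to 70706 scaled counts in the 17 libraries. Cd36 also stands in the list of lipid-associated macrophage genes, so its level cannot settle the tissue.

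The diets differed in 197 of 491 genes tested (40.1%; edgeR quasi-likelihood test, Benjamini-Hochberg adjusted p under 0.05). Of these, 141 (28.7%) were higher and 56 (11.4%) lower on starch/oleate. In 19 genes (3.87%) no library of one diet reached the range of the other; 9 (1.83%) were higher and 10 (2.04%) lower on starch/oleate. Differences are log2 values, starch/oleate minus sucrose/palmitate, after each library was scaled to the geometric mean of 14 reference genes, and the median difference of all genes was 0.14. The split depends on that scaling: with TMM scaling, which centres the bulk of the genes, 214 genes passed, 106 higher and 108 lower, and the median was -0.03. DESeq2 called 109 higher and 110 lower, and a fit with the lymph node genes as a covariate 105 and 65. Under their own scaling 7 of the 14 reference genes differed, from -0.53 for Hprt to 0.73 for Gusb.

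The largest fall among genes past the threshold was that of an adipocyte gene. Cfd encodes adipsin, a protease of the complement system that fat cells release. It was at 1089, 7957, 1779, 3800, 4971, 7238, 3368, 2967 and 3518 scaled counts in starch/oleate libraries 1 to 9. In sucrose/palmitate libraries 1 to 8 it was at 11628, 20829, 19428, 18993, 36487, 9299, 45548 and 74784. The highest starch/oleate library lay below the lowest sucrose/palmitate library. Cfd fell by 2.86 ± 0.45 (SE) on the log2 scale, 7.27-fold (adjusted p = 6.86e-06). Pparg, the nuclear receptor that drives adipocyte differentiation and lipid storage, had 271 to 421 scaled counts on starch/oleate and 587 to 811 on sucrose/palmitate, again without overlap. It fell by 0.93 ± 0.15, with means of 365 ± 46.2 (SD, n = 9) and 696 ± 88.1 (SD, n = 8) and an adjusted p of 8.02e-06. Cd36 did not follow them: its means were 62649 ± 9636 and 55987 ± 8632, with a difference of 0.16 ± 0.14 (adjusted p = 0.361). Of the 4 adipocyte genes tested 2 were lower, against 11.4% of all genes. Their median difference was -0.42, against 0.14 over all genes. The adipocyte list summed to 53682 to 74861 scaled counts on starch/oleate and 63717 to 141794 on sucrose/palmitate.

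The promoters of Cfd and Pparg, the adipocyte genes that fell together, are shown with that of Lair1, a leukocyte gene that rose without overlap. Each sequence is the 250 bases before a RefSeq start on GRCm38.p6, read 5′ to 3′ on the gene's strand. Cfd lies at chr10:79890603-79890852 (+ strand), the third of 3 Pparg starts at chr6:115421816-115422065 (+ strand) and Lair1 at chr7:4063205-4063454 (- strand). Capitals mark matches to TTGCNNAA, the core letters of a C/EBP motif, on either strand.
Cfd: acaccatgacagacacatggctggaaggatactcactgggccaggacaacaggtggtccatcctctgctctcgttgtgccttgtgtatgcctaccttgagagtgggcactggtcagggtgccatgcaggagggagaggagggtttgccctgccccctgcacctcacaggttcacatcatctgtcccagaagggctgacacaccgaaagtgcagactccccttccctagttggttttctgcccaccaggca
Pparg: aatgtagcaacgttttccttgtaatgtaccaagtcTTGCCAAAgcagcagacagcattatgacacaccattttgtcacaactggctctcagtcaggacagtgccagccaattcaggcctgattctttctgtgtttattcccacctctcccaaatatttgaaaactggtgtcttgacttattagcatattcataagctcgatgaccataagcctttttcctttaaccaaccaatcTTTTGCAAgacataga
Lair1: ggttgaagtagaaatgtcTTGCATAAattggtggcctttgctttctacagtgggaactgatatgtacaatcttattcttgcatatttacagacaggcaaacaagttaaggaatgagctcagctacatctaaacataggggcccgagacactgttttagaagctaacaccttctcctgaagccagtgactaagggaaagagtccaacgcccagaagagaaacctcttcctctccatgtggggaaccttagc
The Cfd promoter held no match, the Pparg promoter shown held 2 and that of Lair1 held 1, while the other Pparg starts held none. Of the 491 genes tested, 368 had an entry in the promoter table used, 108 of them called higher and 41 lower, and shares are of these. A match stood in 10.8% of the 27025 genes of the table, in 46 of the 368 (12.5%), in 14 of the 108 and in 1 of the 41. The motif of PPAR gamma, a direct repeat of AGGTCA with a base between, was in 0 of the 368 and in 0.0407% of all. The PU.1 letters GAGGAAGT, the motif of a myeloid factor, were in 17 of the 368 (4.62%) against 2.79% of all. They stood in 4 of the 108 called higher (3.7%) and 2 of the 41 called lower (4.88%). These matches are descriptions of the letters in these windows.

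**Figure D1:**
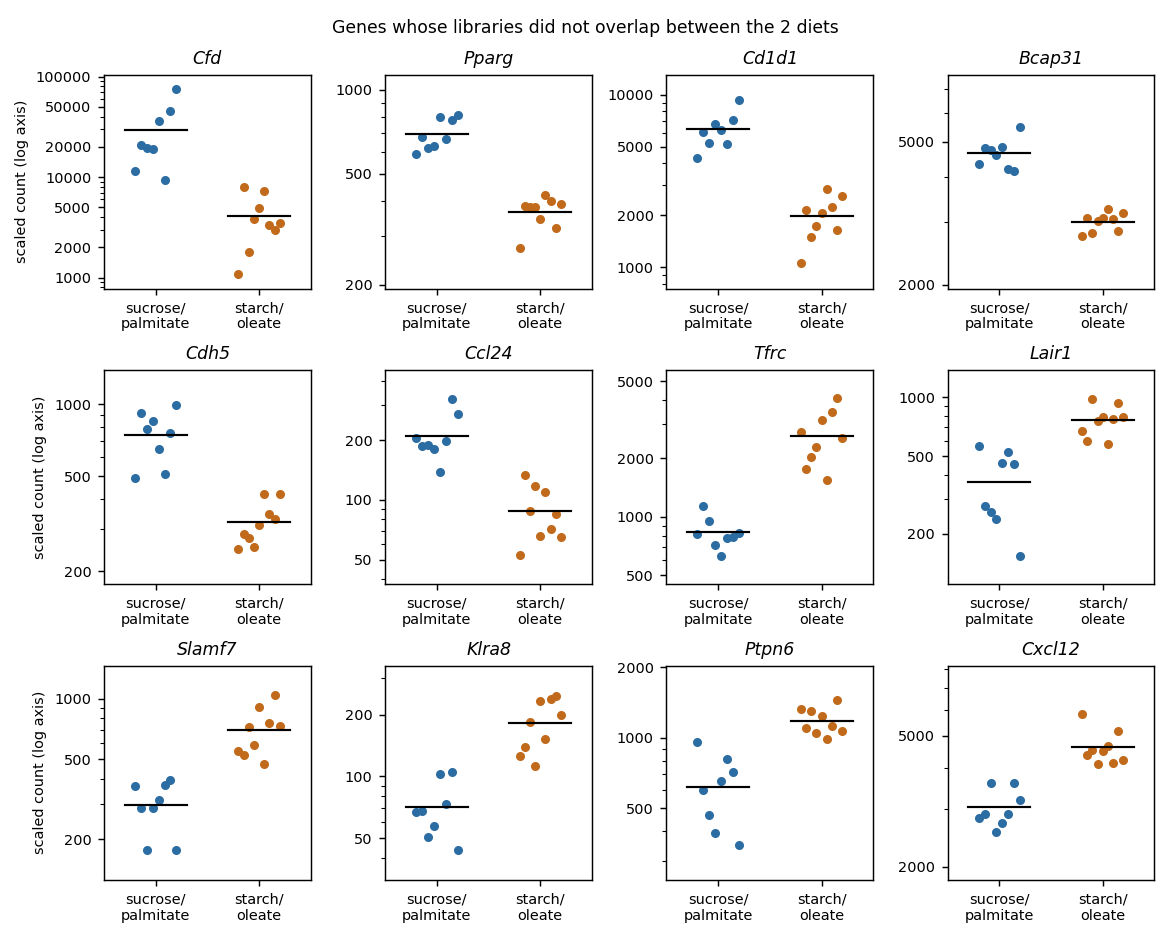
Scaled counts (log axis) of 12 of the 19 genes whose libraries did not overlap; each point is 1 library, horizontal offsets only separate points, and bars are means of 8 sucrose/palmitate or 9 starch/oleate libraries. The 6 genes from Cfd to Ccl24 lie lower on starch/oleate and the 6 from Tfrc to Cxcl12 higher; Pparg reaches 421 at most on starch/oleate and is at least 587 on sucrose/palmitate.

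Cd1d1 presents lipid antigens to natural killer T cells and is carried by adipocytes among other cells. Its starch/oleate libraries held 1051 to 2848 scaled counts and its sucrose/palmitate libraries 4309 to 9359, and it fell by 1.67 ± 0.21 (3.19-fold, adjusted p = 4.43e-08). Bcap31, an endoplasmic reticulum protein that escorts new membrane proteins, ran from 2731 to 3241 against 4148 to 5503 and fell by 0.63 ± 0.08 (adjusted p = 4.43e-08). Bcap31 shifted little but had narrow spreads, 2994 ± 178 (SD, n = 9) and 4648 ± 439 (SD, n = 8). Cdh5, the cadherin of endothelial junctions, ran from 247 to 420 against 493 to 991 and fell by 1.21 ± 0.16 (adjusted p = 9.19e-08). Itga6, an integrin chain of vessels and epithelia, fell by 1.00 ± 0.14, Icam2, an endothelial ligand of leukocyte integrins, by 0.73 ± 0.14, and Pecam1, an adhesion molecule of the endothelial junction, by 0.64 ± 0.15. Their ranges overlapped: 8, 7 and 5 of the 9 starch/oleate libraries lay below the lowest sucrose/palmitate library. Of 12 endothelial and adhesion genes 5 fell, 2 rose and 5 did not pass, 58.3% called against 40.1% of all genes. Their median was -0.42. With TMM scaling and in DESeq2 6 fell and 0 rose. Map4k4, a kinase of stress and adhesion signalling, fell by 0.55 ± 0.09 and Cd81, a membrane scaffold protein, by 0.53 ± 0.11, both without overlap.

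Macrophage genes were higher on starch/oleate. Of 20 pan-macrophage genes 16 rose and 4 did not pass, against 28.7% of all genes rising, and the list's median was 0.73. Emr1, now named Adgre1, which encodes the macrophage marker F4/80, was at 5819, 4049, 5846, 4891, 4956, 4140, 5542, 6401 and 5151 scaled counts in starch/oleate libraries 1 to 9. In sucrose/palmitate libraries 1 to 8 it was at 5272, 2628, 2133, 1774, 3297, 4432, 2658 and 1529. Sucrose/palmitate libraries 1 and 6 reached into the starch/oleate range, and the other 6 lay below it. Emr1 rose by 0.81 ± 0.25 (adjusted p = 0.0101). Msr1, a scavenger receptor for modified lipoproteins, rose by 1.16 ± 0.26, from a mean of 727 ± 272 to 1621 ± 421. Fcgr4, an activating receptor for IgG, rose by 1.32 ± 0.36 and Fcgr2b, the inhibitory one, by 0.93 ± 0.19. Fcer1g, the signalling chain that activating Fc receptors share, rose by 1.03 ± 0.24, and Ly96, the partner of Tlr4 in binding lipopolysaccharide, by 0.76 ± 0.16. In Msr1, Fcgr4, Fcgr2b, Fcer1g and Ly96, 8 of 9 starch/oleate libraries lay above the highest sucrose/palmitate library.

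The macrophage list summed to 55167 to 90354 scaled counts on starch/oleate and 26077 to 69769 on sucrose/palmitate. The part of macrophage number in the differences of single genes was not tested. Leaving out sucrose/palmitate 3 and 4 together lowered the macrophage genes that passed from 16 to 8, with a median of 0.58, and ended the calls of Emr1 (0.65, adjusted p = 0.066) and Trem2 (0.81, adjusted p = 0.0551).

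Trem2, a lipid receptor of macrophages in obese fat, was at 1615 to 3009 scaled counts on starch/oleate, with a median of 2645, and 517 to 2154 on sucrose/palmitate, with a median of 1244. It rose by 0.96 ± 0.29 (adjusted p = 0.00879), and 7 of 9 starch/oleate libraries exceeded all sucrose/palmitate ones. Cd9, a tetraspanin of the same cells, rose by 0.62 ± 0.17 from a mean of 4937 ± 1135 to 7601 ± 867. Itgax, which encodes CD11c, had means of 6745 ± 1552 and 3976 ± 1829 and a difference of 0.76 ± 0.32 that missed the threshold (adjusted p = 0.0511). It passed when any one of starch/oleate 2 or 6 or sucrose/palmitate 1, 5, 6 or 7 was left out. Itgax also passed in 5 of 16 other alternatives. These were scaling to the positive controls, a mean count of at least 30 and only the compared diets in the fit. The others left out starch/oleate 2 and 6, or sucrose/palmitate 1 and 7. Of the 4 lipid-associated genes tested 2 rose, against 28.7% of all genes, with Cd36 counted here as well as among the adipocyte genes.

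Of 5 resident macrophage genes 3 fell, 60% against 11.4% of all genes, with a median of -0.69. The members that did not pass had differences above 0: 0.23 ± 0.49 for Marco, a scavenger receptor (adjusted p = 0.761), and 0.10 ± 0.23 for Il10, an anti-inflammatory cytokine (adjusted p = 0.767). Without sucrose/palmitate 1 and 7 Marco passed as higher (1.32, adjusted p = 0.0270), and the Il10 difference was -0.066 under TMM and in DESeq2. Ccl24, an eosinophil-attracting chemokine of resident macrophages, was at 52.6 to 134 scaled counts on starch/oleate and 139 to 323 on sucrose/palmitate, without overlap. It fell by 1.27 ± 0.22 (adjusted p = 1.83e-05). Cd163, the haemoglobin scavenger receptor, fell by 0.69 ± 0.23, from 640 ± 123 to 397 ± 69.1 (adjusted p = 0.0169), and Cd209g, a lectin of the DC-SIGN group, by 0.81 ± 0.22. The Cd163 call was lost when libraries were scaled to the positive controls (-0.60, adjusted p = 0.0625).

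Lair1, an inhibitory receptor for collagen, was at 576 to 983 scaled counts on starch/oleate and 155 to 563 on sucrose/palmitate and rose by 1.06 ± 0.26 (adjusted p = 0.0020). Ptpn6, the phosphatase that such receptors recruit, was at 992 to 1450 against 348 to 958 and rose by 0.93 ± 0.21. Clec5a, an activating lectin of myeloid cells, rose by 0.91 ± 0.19, and Slamf7, a receptor of natural killer, plasma and myeloid cells, by 1.24 ± 0.26. Blnk, an adaptor of B cells and macrophages, was at 1977 to 2429 against 739 to 1858 and rose by 0.75 ± 0.21. Lilrb4, an inhibitory receptor of myeloid cells, had 4721 to 11649 scaled counts against 1604 to 5662 and rose by 1.45 ± 0.30, and only starch/oleate 6 lay inside the sucrose/palmitate range. Lilrb4 has a near-identical neighbour, and reads of the pair were not separated here.

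**Figure D2:**
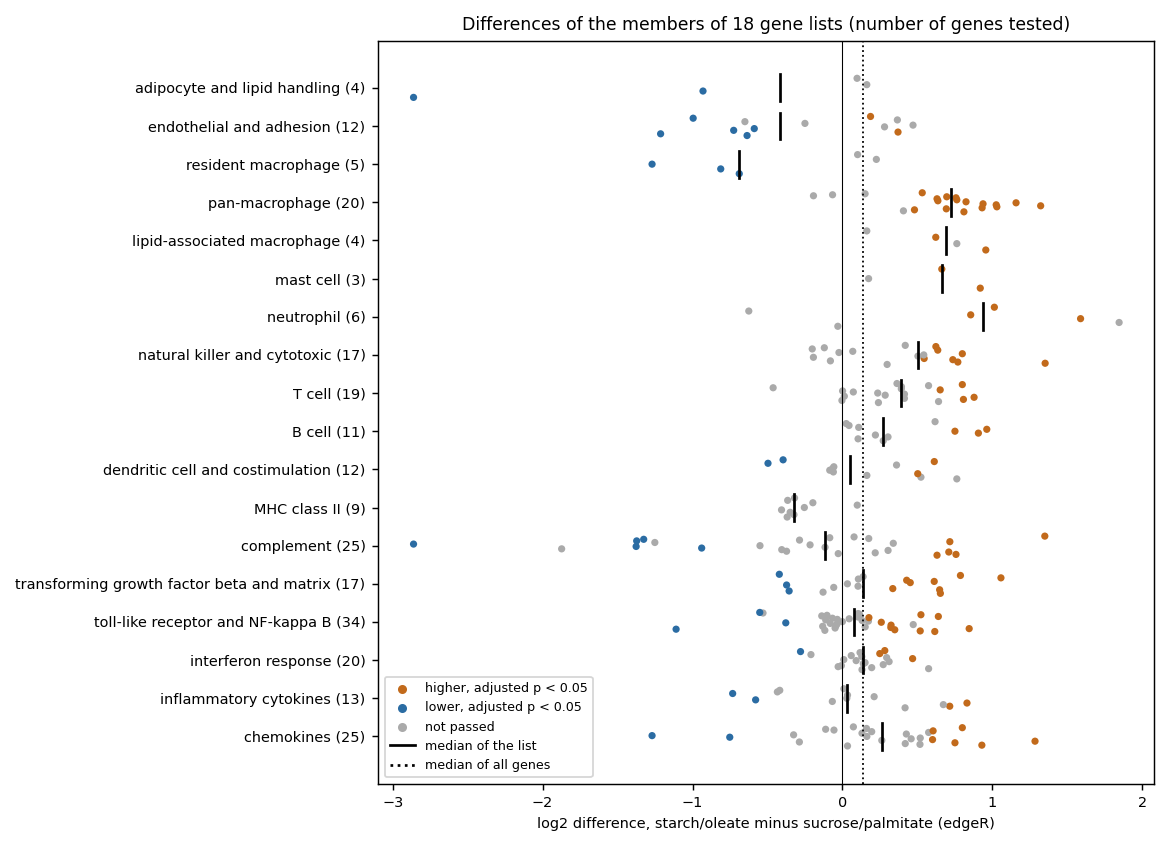
Log2 differences (starch/oleate minus sucrose/palmitate, edgeR) of the members of 18 gene lists, 1 point per gene; coloured points passed at an adjusted p under 0.05, solid ticks are list medians and the dotted line is the median of all genes, 0.14. The pan-macrophage points lie mostly right of the line (median 0.73), the resident macrophage and endothelial medians left of 0 (-0.69 and -0.42); a gene may stand in more than 1 list.

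Tfrc had the smallest p among the genes that rose. It encodes the transferrin receptor, through which cells take up iron. It was at 2746, 1756, 2032, 2284, 3162, 1539, 3452, 4066 and 2542 scaled counts in starch/oleate libraries 1 to 9 and at 818, 1142, 948, 715, 630, 781, 791 and 824 in sucrose/palmitate libraries 1 to 8. The lowest starch/oleate library, 6, exceeded the highest sucrose/palmitate library, 2. Tfrc rose by 1.66 ± 0.20, 3.15-fold (adjusted p = 4.43e-08). Ctnnb1, which encodes beta-catenin of cell junctions and Wnt signalling, rose by 0.46 ± 0.07 without overlap, from a mean of 6026 ± 520.0 to 8300 ± 738.

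Of 17 genes of transforming growth factor beta and matrix 8 rose and 3 fell, 64.7% called against 40.1% of all genes. Their median equalled that of all genes, 0.14. Tgfb1, the ligand, rose by 0.65 ± 0.16 and its signalling receptor Tgfbr1 by 0.65 ± 0.13, with 7 of 9 starch/oleate libraries above all sucrose/palmitate ones in each. Plau, the urokinase that starts matrix breakdown, rose by 0.45 ± 0.13. Ets1, a transcription factor of vessels and lymphocytes, fell by 0.42 ± 0.11 (adjusted p = 0.00384), a call lost with scaling to the positive controls (-0.32, adjusted p = 0.122).

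Of 25 chemokine ligands 6 rose and 2 fell, no larger shares than the 28.7% and 11.4% of all genes, with a median of 0.26. With TMM scaling and in DESeq2 6 rose and 4 fell. Cxcl12, which retains leukocytes and progenitors in stroma, was at 4102 to 5837 scaled counts on starch/oleate and 2559 to 3598 on sucrose/palmitate and rose by 0.60 ± 0.14 without overlap (adjusted p = 0.00114). Ccl8, a macrophage-made attractant of monocytes and T cells, rose by 1.28 ± 0.46 and Ccl3, an attractant of monocytes, by 0.93 ± 0.27. The Ccl8 call was lost with the lymph node covariate (0.77, adjusted p = 0.0792) and without sucrose/palmitate 3 and 4 (1.29, adjusted p = 0.0577). Ccl2, the attractant of inflammatory monocytes, had means of 1118 ± 306 and 1092 ± 508 and a difference of 0.03 ± 0.23 (adjusted p = 0.927). The sign of the Ccl2 difference turned under TMM and DESeq2. Among 16 chemokine receptors 5 rose and 1 fell, 37.5% called against 40.1% of all genes. Ccbp2, a scavenging receptor that removes inflammatory chemokines and is now named Ackr2, was at 35.8 to 71.3 against 72.4 to 102 scaled counts and fell by 0.60 ± 0.19 without overlap. Its call was lost with scaling to the positive controls (-0.52, adjusted p = 0.0662).

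Of 17 natural killer and cytotoxic genes 7 rose (41.2%, against 28.7% of all genes) and 10 did not pass, with a median of 0.50. Differences were above 0 in 12 of the 17. Gzma, a protease of cytotoxic granules, was among those that did not pass. Klra8, a Ly49 receptor, was at 112 to 247 scaled counts on starch/oleate and 44.1 to 105 on sucrose/palmitate and rose by 1.35 ± 0.23 without overlap (adjusted p = 1.86e-05). The Ly49 genes are near-identical copies that vary between strains, so the Klra8 probe may read several of them. Klrd1, the partner chain of NKG2 receptors, rose by 0.74 ± 0.19, Xcl1, a chemokine of cytotoxic cells, by 0.80 ± 0.19, and Il2rb, a receptor chain for IL-2 and IL-15, by 0.62 ± 0.18. Il12rb2, a chain of the IL-12 receptor of natural killer and T cells, was at 34.5 to 76.1 against 13.02 to 34.6 scaled counts. It rose by 1.26 ± 0.20 (adjusted p = 8.02e-06), and only starch/oleate 6 fell inside the sucrose/palmitate range.

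Of 19 T cell genes 4 rose and 15 did not pass, a smaller share than the 28.7% of all genes, with a median of 0.39. Thy1, a surface protein of T cells and some stromal cells, rose by 0.80 ± 0.18, Cd4, the co-receptor of helper T cells, by 0.81 ± 0.24, and Lck, the kinase of T cell receptor signalling, by 0.65 ± 0.17. Cd8b1 rose by 0.88 ± 0.32 (adjusted p = 0.025), a call lost when starch/oleate 5 (0.74) or sucrose/palmitate 3 (0.78), 4 (0.81) or 8 (0.78) was left out. Cd8a, the other CD8 chain, did not pass. Cd3e, the chain that defines T cells, had means of 50.8 ± 18.6 and 32.6 ± 24.1, a difference of 0.64 ± 0.32 that did not pass (adjusted p = 0.0975). It reached 1.02 (adjusted p = 0.00773) without sucrose/palmitate 7, whose 87.2 scaled counts stood apart. Among 9 regulatory T cell and checkpoint genes 2 rose and 1 fell, 33.3% called against 40.1% of all genes. The gene that fell was Il2ra, the high-affinity IL-2 receptor chain of regulatory and activated T cells, at 33.6 to 60 against 56.5 to 118 scaled counts, a difference of -0.87 ± 0.14 (adjusted p = 8.02e-06). Foxp3, the factor that defines regulatory T cells, had means of 13.6 ± 5.17 and 8.61 ± 4.42 and a difference of 0.70 ± 0.29 (adjusted p = 0.0522). Foxp3 passed when any one of starch/oleate 2, 4 or 7 or sucrose/palmitate 5 or 6 was left out. Tigit, an inhibitory receptor of T and natural killer cells, rose by 1.07 ± 0.31, but its sucrose/palmitate mean of 7.57 was no higher than the negative control mean of 8.38 in those libraries.

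Of 11 B cell genes 3 rose, a share near the 28.7% of all genes, with a median of 0.27. Btk, a kinase of B cell receptor signalling that also acts in myeloid cells, rose by 0.91 ± 0.23 and Cd22, an inhibitory receptor of B cells, by 0.96 ± 0.25, and Blnk is given above. Ms4a1, the defining marker CD20, had means of 173 ± 62.8 and 140 ± 113 and a difference of 0.30 ± 0.40 (adjusted p = 0.574). Cxcl13, the chemokine that gathers B cells in follicles, had means of 396 ± 167 and 412 ± 540 and a difference of -0.06 ± 0.79 (adjusted p = 0.964). Sucrose/palmitate 1 and 7 held 1292 and 1270 scaled counts of Cxcl13, and without both the differences were 1.69 (adjusted p = 0.101) for Cxcl13 and 0.99 (adjusted p = 0.0482) for Ms4a1. Of 11 lymph node genes 1 rose, 9.1% against 28.7% of all genes. Their sum was 560 to 1658 scaled counts on starch/oleate and 438 to 2481 on sucrose/palmitate, and the part of lymph node tissue in the dissected pads was not tested.

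Of 3 mast cell genes 2 rose, against 28.7% of all genes. Fcer1a, a chain of the IgE receptor, rose by 0.92 ± 0.21, from 45.2 ± 18.8 to 85.6 ± 28.1, and Il1rl1, the receptor for IL-33, by 0.66 ± 0.19. Of 6 neutrophil genes 3 rose, against the same 28.7% of all genes, and S100a8, S100a9 and Ltf did not pass. Differences were above 0 in 4 of the 6, and 1 gene was lower at an unadjusted edgeR p under 0.05. The neutrophil list summed to 387 to 4289 scaled counts on starch/oleate, median 953. On sucrose/palmitate it summed to 512 to 1576, median 841. Csf3r, the receptor for the neutrophil growth factor G-CSF, rose by 0.86 ± 0.26. Cxcr2, the receptor that brings neutrophils into tissue, rose by 1.59 ± 0.59 (adjusted p = 0.0306), with a median of 25.4 and a highest of 306 on starch/oleate against 20.9 and 53.3. The Cxcr2 difference was 0.83 (adjusted p = 0.235) without starch/oleate 1, and the call was also lost without starch/oleate 6 (1.41) or sucrose/palmitate 4 (1.48).

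Of 9 MHC class II genes, which present antigen to helper T cells, 0 passed in edgeR and 0 had an unadjusted p under 0.05, while DESeq2 called 7 lower. The median difference was -0.32, and 8 of 9 differences were negative. H2-Ab1, a class II beta chain, had means of 417 ± 140 and 522 ± 119 and a difference of -0.32 ± 0.22 (adjusted p = 0.248). With TMM scaling 7 of the 9 passed as lower, H2-Ab1 among them (-0.49, adjusted p = 0.0303), and with the lymph node genes as a covariate 6. The class II median lay 0.46 below that of all genes under both scalings, at -0.46.

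Of 25 complement genes 5 rose and 5 fell, 40% called against 40.1% of all genes, with a median of -0.12. With TMM scaling and in DESeq2 4 rose and 9 fell. Hc, which encodes complement component 5, was at 25.9 to 81.8 against 7.91 to 28.8 scaled counts and rose by 1.35 ± 0.35 (adjusted p = 0.00314), with 8 of 9 starch/oleate libraries above all sucrose/palmitate ones. C3, the central component, had means of 7617 ± 932 and 6170 ± 1482 and a difference of 0.30 ± 0.16 that passed only without sucrose/palmitate 7 among single libraries left out (0.41, adjusted p = 0.0387). Cd59b and Cd46, listed as membrane regulators of complement, fell by 1.33 ± 0.20 and 1.37 ± 0.31, and C8g, a chain of the membrane attack complex, by 1.38 ± 0.29. All of these were low counts: Cd59b ran from 12.1 to 28.4 against 36.6 to 124, without overlap. Sucrose/palmitate 4 was the highest library for Cd59b, Cd46 and C8g, and without it the C8g difference was -0.88 (adjusted p = 0.00757) and that of Cd46 -0.56 (adjusted p = 0.0251). Without sucrose/palmitate 3 as well, Cd46 was at -0.51 (adjusted p = 0.0582). C9 had means of 8.62 ± 2.47 and 12.8 ± 4.59, near the negative controls, and did not pass (adjusted p = 0.203).

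Of 13 inflammatory cytokine genes 2 rose and 2 fell, 30.8% called against 40.1% of all genes, with a median of 0.03. Tnf had means of 43.5 ± 7.32 and 32.5 ± 11.95 and a difference of 0.42 ± 0.25 (adjusted p = 0.181). Il1b differed by 0.67 ± 0.45 (adjusted p = 0.230) and Il6 by -0.07 ± 0.26 (adjusted p = 0.861), both with medians under 30 scaled counts in both diets. Without starch/oleate 1 the Il1b difference was 0.15 (adjusted p = 0.814). Il1rn, the secreted antagonist of IL-1, rose by 0.83 ± 0.32 (adjusted p = 0.0378), from 876 ± 522 to 1558 ± 370, and Il1a, an IL-1 ligand, by 0.72 ± 0.27 (adjusted p = 0.0321), from 12.5 ± 5.10 to 20.2 ± 5.78. Both calls ended under TMM scaling (0.69, adjusted p = 0.0570, and 0.56, adjusted p = 0.0729). The Il1rn call was also lost without starch/oleate 1 or 3 or sucrose/palmitate 2, 3, 4, 7 or 8, and the Il1a call without starch/oleate 4 or 5 or sucrose/palmitate 2, 3 or 8. Nos2, the inducible nitric oxide synthase of activated macrophages, fell by 0.73 ± 0.20, from 25.6 ± 7.23 to 15.3 ± 5.89. Il1a and Nos2 were near the highest negative control count, 21.

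Of 34 genes of toll-like receptors and NF-kappa B 10 rose and 3 fell, 38.2% called against 40.1% of all genes. TMM scaling and DESeq2 turned the 10 and 3 to 5 and 10, so the direction rests on the scaling. Tlr5, the receptor for flagellin, fell by 1.11 ± 0.23, from 81.3 ± 26.9 to 37.7 ± 15.1 (adjusted p = 0.000263), and Tnfaip3, a brake on NF-kappa B, rose by 0.52 ± 0.13. Of 20 interferon response genes 3 rose and 1 fell, fewer than the background shares, with a median of 0.13. With TMM scaling and in DESeq2 0 rose and 1 fell, with a median of -0.03. Cxcl10, an interferon-induced chemokine, had means of 60.3 ± 31.9 and 40.5 ± 5.62 and did not pass (adjusted p = 0.186). Ifnar1, a chain of the type I interferon receptor, rose by 0.25 ± 0.06, a call lost under TMM (0.09, adjusted p = 0.229). Of 26 interleukin receptors 8 rose and 3 fell (42.3% called), and 5 and 5 under TMM and DESeq2. Of 16 JAK, STAT and SOCS genes 4 rose and 2 fell (37.5% called), but 1 and 4 under TMM and 2 and 3 in DESeq2. Of 10 class I and immunoproteasome genes 1 rose and 2 fell (30% called). The class I count moved with the scaling: 4 fell under TMM, 5 fell in DESeq2 and 0 passed with scaling to the positive controls. Of 12 dendritic cell and costimulation genes 2 rose and 2 fell (33.3% called), and of 12 cell death genes 2 rose and 1 fell (25% called).

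The levels on the other diets place these differences. Mean scaled counts of Tfrc were 1070 ± 377 (SD, n = 8) on chow, 933 ± 159 (n = 7) on starch/palmitate, 884 ± 344 (n = 9) on sucrose/oleate and 831 ± 155 (n = 8) on sucrose/palmitate, against 2620 ± 827 (n = 9) on starch/oleate. Sucrose/oleate reached 1616 at most, which overlaps the lowest starch/oleate library, 1539, as does chow with 1849. The Tfrc difference of starch minus sucrose was 1.57 ± 0.19 with oleate (adjusted p = 1.24e-07) and 0.17 ± 0.21 with palmitate (adjusted p = 0.882). These single steps share samples with each other and with the main comparison and set diets with different control ratios side by side.

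Cd1d1 was lowest on starch/oleate and highest on chow, with means of 10446 ± 2833 on chow, 6299 ± 1543 on sucrose/palmitate, 5576 ± 1618 on starch/palmitate, 5087 ± 1713 on sucrose/oleate and 1975 ± 559 on starch/oleate. The 3 middle diets overlapped widely, and no sucrose/oleate or starch/palmitate library lay as low as the highest starch/oleate library, 2848. Pparg was at 1025 ± 371 on chow, 652 ± 154 on starch/palmitate and 605 ± 83.3 on sucrose/oleate, and its lowest library on those diets, 480, lay above the starch/oleate maximum of 421. Cfd was at 70397 ± 68829 on chow, where its libraries spanned 18982 to 222161, and at 18614 ± 5995 on starch/palmitate and 13643 ± 9929 on sucrose/oleate. The step of starch minus sucrose was -1.74 ± 0.43 with oleate (adjusted p = 0.00363) and -0.67 ± 0.46 with palmitate (adjusted p = 0.656).

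Lair1 and Tgfbr1 were at similar levels on both oleate diets. Lair1 was at 725 ± 139 on sucrose/oleate and 762 ± 136 on starch/oleate, but 459 ± 158 on starch/palmitate and 366 ± 151 on sucrose/palmitate. Its step of oleate minus palmitate was 0.99 ± 0.26 with sucrose (adjusted p = 0.0284) and 0.73 ± 0.27 with starch (adjusted p = 0.0345), while starch minus sucrose was 0.07 ± 0.25 with oleate (adjusted p = 0.870). Tgfbr1 had the same order, with 2436 ± 403 and 2508 ± 421 on the oleate diets and 1575 ± 201 and 1601 ± 352 on the palmitate diets. Itgax was at 6998 ± 2123 on sucrose/oleate, beside 6745 ± 1552 on starch/oleate, 3567 ± 868 on starch/palmitate and 1783 ± 914 on chow. Hc had a mean of 52.5 ± 18.8 on starch/oleate and means from 19.4 to 21.4 on the other 3 custom diets. Of the 4 single steps, none passed for Emr1 and only oleate minus palmitate with starch for Trem2 (1.06 ± 0.30, adjusted p = 0.00781).

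**Figure D3:**
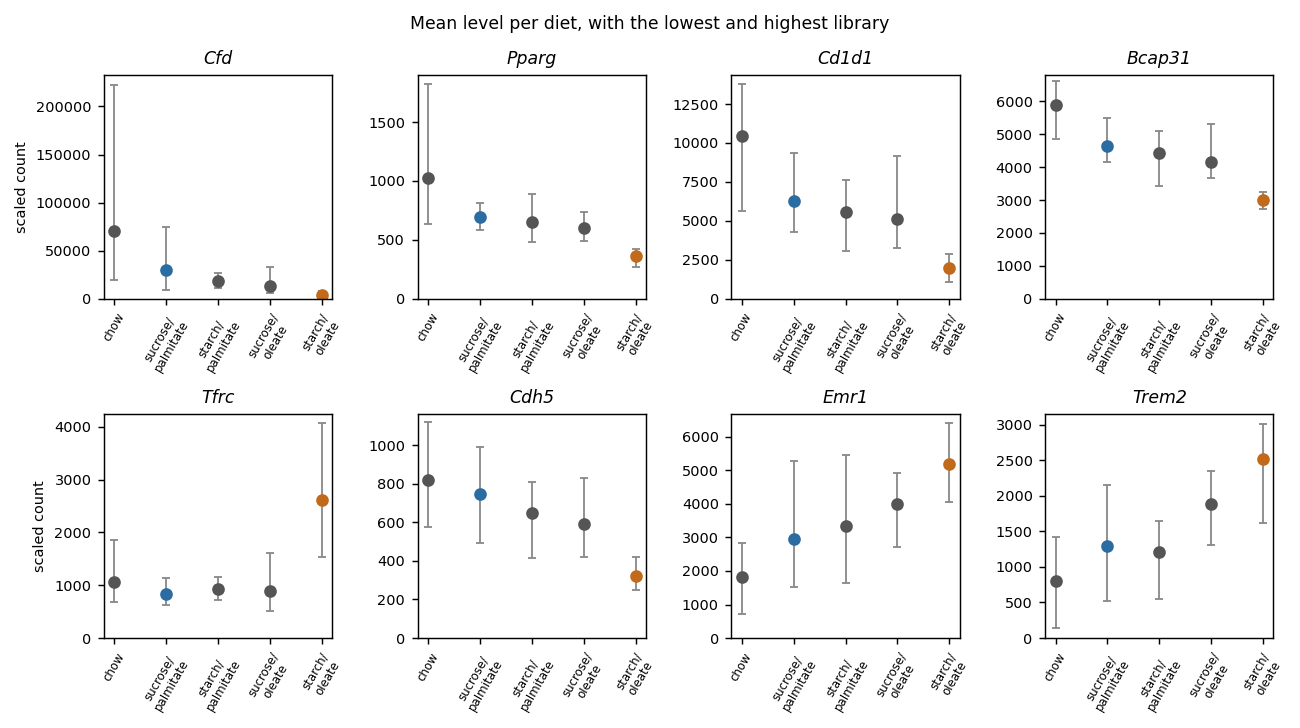
Scaled counts of 8 genes on chow and the 4 custom diets; points are group means and bars run from the lowest to the highest library (7 to 9 libraries a diet). Tfrc is highest and Cd1d1, Pparg and Bcap31 lowest on starch/oleate, with the 3 other custom diets close together.

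In the range of the positive control ratio that both diets share, 3.11 to 3.28, lay all 9 starch/oleate but only 2 sucrose/palmitate libraries, and 103 genes passed there. The positive control ratio split the libraries into 2 sets with no library in common. Above 3.2 lay 4 starch/oleate and 4 sucrose/palmitate libraries, and below it 5 and 4. In the set above, the ratios of the diets did not overlap, 3.25 to 3.28 on starch/oleate and 3.31 to 3.56 on sucrose/palmitate. Diet and control ratio therefore cannot be told apart in that set. The diets differed in 100 genes in the set above and in 30 in the set below, and 23 genes passed in both, in the same direction each time. Of the 100 genes, 94 had the same sign in the set below, and all 30 had the same sign in the set above. Over all genes 376 of 491 had the same sign in both sets. The Tfrc difference was 1.46 above and 1.85 below, that of Cd1d1 -1.69 in both, that of Bcap31 -0.64 and -0.63, that of Cdh5 -1.47 and -1.02, and that of Cfd -1.99 and -3.46, all past the threshold in each set. The macrophage median was 0.77 above and 0.69 below, but only 7 and 1 of the 20 genes passed. Emr1 (0.74 and 0.86) and Trem2 (0.96 and 0.95) passed in neither set. The T cell median was 0.65 above and -0.01 below and that of B cell genes 0.60 and -0.02. The Cd8a difference was 0.99 above and -0.14 below and passed in neither set. With the side of 3.2 as a block in the fit of all libraries, 192 genes passed.

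**Figure D4:**
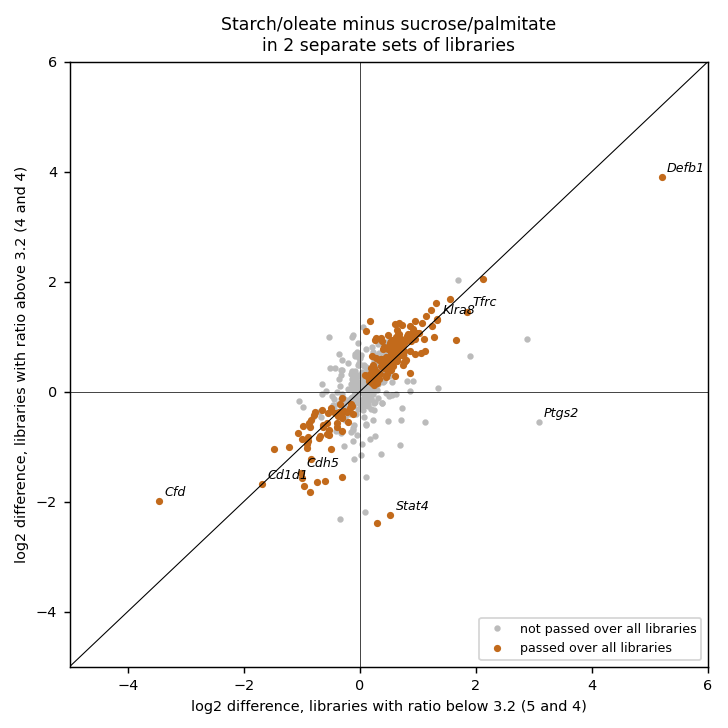
Log2 difference between the diets (edgeR) in libraries with a positive control ratio below 3.2 (horizontal, 5 and 4 libraries) and above 3.2 (vertical, 4 and 4); each point is 1 of 491 genes, coloured where it passed over all libraries, and the diagonal marks equal values. Tfrc, Klra8, Cd1d1 and Cdh5 lie near the diagonal, Cfd and Defb1 lie off it but in the same quadrant, and Ptgs2 and Stat4 change sign between the sets.

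Some differences rested on single libraries. Stat4, the factor that IL-12 activates, had 1191 scaled counts in sucrose/palmitate 4 and at most 61.4 in the other libraries of that diet, against 57.0 to 88.8 on starch/oleate. Its difference was -1.41 ± 0.45 (adjusted p = 0.0113) over all libraries and 0.57 (adjusted p = 0.00915) without sucrose/palmitate 4, so the sign turned. Ptgs2, the inducible cyclooxygenase, had 9674 in sucrose/palmitate 3 and at most 82.5 in the others. On starch/oleate it was at 1010 to 2575 in libraries 1 to 5 and 21.1 to 112 in libraries 6 to 9. Its difference was -0.43 ± 1.15 (adjusted p = 0.808) and became 4.34 (adjusted p = 0.00594) without sucrose/palmitate 3.

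The epithelial genes Defb1, an antimicrobial defensin, and Ceacam1, an adhesion molecule, were high in the same starch/oleate libraries. Defb1 had 2731 scaled counts in starch/oleate 2, 2632 in 6 and 266 in 4, and a median of 18.96 on that diet against 15.2 on sucrose/palmitate. Ceacam1 had 1487 in starch/oleate 2 and 2543 in 6, with a median of 199.8 against 144. Their differences of 4.25 ± 1.37 (adjusted p = 0.0127) and 2.11 ± 0.63 (adjusted p = 0.00808) became 0.69 (adjusted p = 0.671) and 0.60 (adjusted p = 0.394) without those libraries. Without starch/oleate 6 alone the Ceacam1 difference was 1.39 (adjusted p = 0.0524). Of the 9 epithelial genes tested 2 rose and 1 fell, 33.3% called against 40.1% of all genes. They summed to 1699 to 8858 scaled counts on starch/oleate and 1595 to 8839 on sucrose/palmitate, and the part of epididymal tissue in the dissected pads was not tested. S100a9, a neutrophil granule protein, reached 1456 in starch/oleate 1, and its difference of 1.85 ± 0.77 did not pass (adjusted p = 0.0504). It passed in DESeq2 (1.70), with scaling to the positive controls (1.97), at a mean count of at least 30 (1.85) and with the ratio as a covariate (1.91). It also passed without any one of starch/oleate 2, 4, 5, 7, 8 or 9 or sucrose/palmitate 3 or 5, and was 0.90 (adjusted p = 0.323) without starch/oleate 1.

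**Figure D5:**
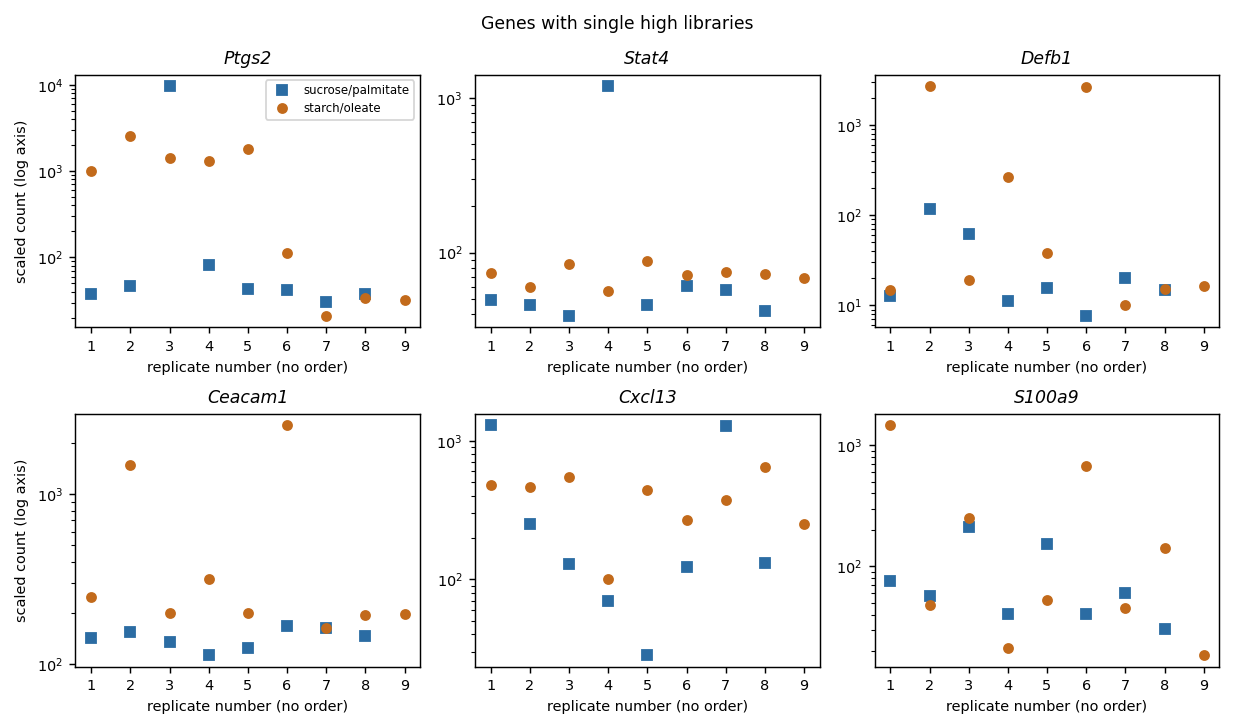
Scaled counts (log axes) of 6 genes by replicate number, squares for sucrose/palmitate and circles for starch/oleate; replicate numbers only name libraries. Stat4 (sucrose/palmitate 4, 1191), Ptgs2 (sucrose/palmitate 3, 9674) and Defb1 (starch/oleate 2 and 6) show single libraries far above the rest of their diet.

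The sucrose/palmitate libraries varied more among themselves. The median SD of log2 scaled counts was 0.358 over the 491 genes on sucrose/palmitate and 0.279 on starch/oleate, and 333 genes had the larger SD on sucrose/palmitate. Trem2 is an example, with SDs of 551 on a mean of 1300 and 449 on a mean of 2521. Assay measures also varied more on sucrose/palmitate. The positive control ratio had SDs of 0.187 and 0.067 on starch/oleate, and the gene probe total 123650 and 61813. The part of the assay in the spread of the genes was not tested.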

How the data were processed

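Total RNA of epididymal fat was measured on NanoString's nCounter panel for mouse immunology. The authors deposited counts, whole numbers per probe with no scaling between samples; the tool that made them is not given in the sources used here. It covers 547 panel genes, 14 reference genes, 8 negative and 6 positive control probes, and its lowest value is 1. Groups were taken from the sample titles. The geometric mean over the reference genes set each library's scale. Tested were the 491 genes whose count averaged 10 or more over the 48 samples. All 48 samples were fitted with a mean per diet with the quasi-likelihood functions glmQLFit and glmQLFTest of edgeR 4.0.16 under R 4.3.3. Two-sided p-values were adjusted by Benjamini-Hochberg over these genes and read at 0.05. Scaled counts are counts divided by the library's scaling factor. Technical measures were compared by exact permutation over 24310 splits. The comparison, the members and the 26 gene lists were chosen with earlier results of these data known.

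Genes named come from a rule: among genes past the threshold the 12 highest and 12 lowest differences, the 10 smallest p-values, genes without overlap, up to 4 members per list, and genes always reported. The text names 84 of these, a subset picked after the values were seen, and Il10, outside the rule, likewise. Cd8a and Gzma, of the rule, and S100a8 and Ltf, outside it, are named besides as genes that did not pass. They stand outside the counts of named genes. The negative controls averaged 7.73 counts, with a highest of 21, and levels near this cannot be told from background. Replicate numbers carried no pairing: same-numbered libraries of the 2 diets had a mean correlation of 0.03 over 8 pairs. No library was a copy of another: over 136 pairs, chi-square divided by its degrees of freedom was at least 6.47. Symbols are those of the table; 558 of 561 matched RefSeq and 13 are not current. Alternatives were TMM scaling, DESeq2 1.42.0, other scalings and filters, covariates, a replicate block and subsets of libraries.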

Additional observations from a re-analysis of the deposited data

Results flagged for a closer look

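In 19 of 170 tests of the highest or lowest library within a diet, 1 library stood farther from its group than Dixon's criterion allows, and chance gives about 1 in 20. The genes were picked after their values were seen, so that rate is no yardstick for the 19. Starch/oleate 1 was the highest library of its diet for Cxcr2 (306 scaled counts), Csf3r (349.6), S100a9 (1456), Il1b (161), Il6 (19.9) and Ccl2 (1907). Sucrose/palmitate 4 was the highest of its diet for Stat4 (1191), Cd59b (124), C8g (132) and Cd46 (131). Sucrose/palmitate 3 was the highest for Ptgs2 (9674) and Cxcr2 (53.3), sucrose/palmitate 1 for Ccl3 (158) and sucrose/palmitate 7 for Cd3e (87.2). Marco was highest in starch/oleate 8 (526) and sucrose/palmitate 1 (540.4). Starch/oleate 5 was the highest for Cd4 (139) and Il10 (23.2), and starch/oleate 6 the lowest for Lilrb4 (4721).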

How the results depend on the processing

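Of 67 named genes that passed, 18 passed in the same direction under all 16 alternatives other than single libraries left out, among them Cfd, Pparg, Cd1d1, Bcap31, Cdh5, Tfrc, Ctnnb1, Klra8, Il12rb2, Slamf7 and Ccl24. The count of 197 genes became 103 in the shared range of the positive control ratio, 100 above and 30 below a ratio of 3.2, where fewer libraries were compared, and 129 without sucrose/palmitate 3 and 4. Leaving out 1 library at a time gave 156 (sucrose/palmitate 4) to 214 (sucrose/palmitate 1). Scaling to the positive controls gave 157 genes, a mean count of at least 30 gave 182 of 406 tested, only the compared diets 208, the ratio as a covariate 179 and no filter 197. The subsets by ratio, the block by side of 3.2 and the sets of left-out library pairs were chosen after seeing the data. Replicate numbers share only a number: 0 of 8 libraries correlated best with its own number, and with a replicate block 180 genes passed. That block turned Cxcl13 to 0.49 and Ptgs2 to 1.95.

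Other signs turned as follows, with causes not tested. In DESeq2, Cd36 was -0.0021, Ccl2 -0.12 and Stat4 0.40, and under TMM Ccl2 was -0.12; Il10 was -0.066 in both. With scaling to the positive controls Il6 was 0.037, and with the ratio as a covariate Ptgs2 was 0.65. In the shared ratio range Cd3e was -0.23, Ms4a1 -0.64, Stat4 0.54, Il10 -0.077 and Ptgs2 4.76. With the lymph node covariate Ms4a1 was -0.12, Marco -0.070 and Ccl2 -0.018. Above 3.2 Il6 was 0.23, Marco -0.55 and Ccl2 -0.21; below it Ms4a1 was -0.042, Cxcl13 0.10, Il10 -0.14, Stat4 0.52 and Ptgs2 3.09, and with the side as a block Ptgs2 was 0.64. Without starch/oleate 2 and 6 Il6 was 0.026, without sucrose/palmitate 1 and 7 Cxcl13 was 1.69, and without sucrose/palmitate 3 and 4 Stat4 was 0.52, Marco -0.046 and Ptgs2 4.55. With single libraries left out, Marco ran from -0.23 to 0.98, Il10 from -0.035 to 0.16, Cxcl13 from -0.24 to 0.47, Il6 from -0.21 to 0.0083, Ccl2 from -0.10 to 0.19, Stat4 from -1.56 to 0.57 and Ptgs2 from -0.80 to 4.34. Counts near the negative controls, whose highest raw count was 21, limit Tigit, Foxp3, Il6, C9, Il1a and Il10. On sucrose/palmitate Hc, Il12rb2, Cxcr2 and Defb1, and on starch/oleate Nos2 and Cd59b, had libraries below 21 scaled counts. Cd46 reached 23.6 at most on sucrose/palmitate outside library 4.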
